A study of Mus musculus with 2 samples.

Results

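Primitive erythroid cells, the first red blood cells of the mouse embryo, made up 176 of 35920 kept barcodes in single-cell RNA libraries from the caudal end of the embryo. Members were chosen by measured values: a barcode was counted when Hba-x, Hbb-bh1 and Hbb-y, the embryonic alpha-like and beta-like globin genes, together gave at least 2% of its unique molecular identifiers (UMIs, counts of single RNA molecules). Barcodes were kept from 2000 UMIs and 1000 genes upward with at most 10% mitochondrial UMIs. Members were then set against 809 endothelial cells, which are kept non-members with at least 3 UMIs of Cdh5, Pecam1 and Tek together, and against the 34935 other kept barcodes.

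The tissue was pooled caudal tissue of wild-type C57BL/6J embryos at embryonic day 8.5, profiled with a 10x Genomics 5′ kit. There was 1 group with 2 libraries, replicates 1 and 2, no treatment and no mutant, so every comparison is between cell classes within a library. Whether each library was made from its own pool of embryos is not stated in the labels. Replicate 2 held 172 members of 13488 kept barcodes, a share of 1.28% with an exact Clopper-Pearson interval of 1.09% to 1.48%. Replicate 1 held 4 members of 22432, a share of 0.0178% (interval 0.00486% to 0.0456%). The intervals cover counting error only and the libraries differ far beyond them. With 4 members in 1 library no test between classes was made, and all values below are levels with counting intervals.

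Primitive erythroid cells arise in the blood islands of the yolk sac and enter the circulation as nucleated cells, in which they go on dividing while they fill with haemoglobin. Haemoglobin joins alpha-type and beta-type chains, and the genes lie in 2 clusters in which embryonic and adult genes sit side by side. In mouse primitive cells Hbb-bh1 is known as the earlier and Hbb-y as the later embryonic beta-type gene, whereas the adult beta-type genes belong mainly to definitive red cells. GATA1 and KLF1 are the transcription factors best known for turning on the globin, haem and membrane genes of the lineage.

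The 2 globin clusters carry the genes that chose and describe these cells. In GENCODE M21 (GRCm38, the mm10 genome), Hba-x lies at chr11:32276400-32278116 on the plus strand and Hba-a1, an adult alpha gene, at chr11:32283511-32284465. Hbb-bh1 lies at chr7:103841637-103843164 and Hbb-y at chr7:103851749-103853216, both on the minus strand, and Hbb-bs, an adult beta gene, at chr7:103826534-103828096. The 250 bases upstream of the RefSeq start site of an embryonic and an adult gene of each cluster are shown because these genes differed widely in level within the same cells. RefSeq and GENCODE place some of the starts at different bases. Sequences are from RefSeq on GRCm38.p6, 5′ to 3′ on the gene's strand, with capitals for the letters GATAA (the core of a GATA site), CCNCNCCC (a form of the CACCC box), CCAAT and TATAAA on either strand.
Hba-x, embryonic alpha-type, chr11:32276350-32276599, plus strand: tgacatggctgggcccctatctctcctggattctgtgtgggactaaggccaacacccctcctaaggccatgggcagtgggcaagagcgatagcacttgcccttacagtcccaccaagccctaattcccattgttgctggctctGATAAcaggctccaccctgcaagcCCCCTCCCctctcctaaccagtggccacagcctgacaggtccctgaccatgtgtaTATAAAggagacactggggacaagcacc
Hba-a1, adult alpha-type, chr11:32283422-32283671, plus strand: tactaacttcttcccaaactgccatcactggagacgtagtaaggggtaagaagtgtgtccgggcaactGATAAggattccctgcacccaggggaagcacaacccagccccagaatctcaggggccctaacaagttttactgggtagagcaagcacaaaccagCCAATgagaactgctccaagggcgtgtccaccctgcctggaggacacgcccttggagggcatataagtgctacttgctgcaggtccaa
Hbb-y, embryonic beta-type, chr7:103853208-103853457, minus strand: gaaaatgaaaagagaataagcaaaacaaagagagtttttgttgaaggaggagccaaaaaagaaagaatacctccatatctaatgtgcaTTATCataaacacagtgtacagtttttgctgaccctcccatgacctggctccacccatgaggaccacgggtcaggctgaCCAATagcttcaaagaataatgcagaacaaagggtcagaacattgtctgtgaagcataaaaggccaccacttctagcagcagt
Hbb-bs, adult beta-type, chr7:103827929-103828178, minus strand: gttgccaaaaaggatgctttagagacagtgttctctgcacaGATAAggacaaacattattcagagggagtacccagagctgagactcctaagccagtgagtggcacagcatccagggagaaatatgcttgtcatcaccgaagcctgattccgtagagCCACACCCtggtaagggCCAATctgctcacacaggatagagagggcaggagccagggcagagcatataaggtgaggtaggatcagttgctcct
Hba-x holds GATAA from -107 to -103, CCNCNCCC from -83 to -76 and TATAAA from -28 to -23 relative to the start site, and none of the letters CCAAT. Hbb-y holds the reverse complement of GATAA from -162 to -158 and CCAAT from -83 to -79. The adult genes Hba-a1 and Hbb-bs each hold 1 GATAA and 1 CCAAT, and Hbb-bs also holds CCNCNCCC from -93 to -86. Over 32851 windows of this length, GATAA was found in 22.6%, CCNCNCCC in 45.9%, CCAAT in 33.8% and TATAAA in 12.4%, so the commoner of these letters occur in many promoters of any gene. The 4 letter strings do not overlap in these windows.

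The globin share set the members apart from nearly all other barcodes, and this is a description because the share is what chose them. In replicate 2 the members spanned 2.22% to 44.8% with a median of 26.8%, while other kept barcodes had a median of 0.00574% and a highest value of 1.80%. Few barcodes lay near the limit: 3 were at 2% to 3%, 5 at 3% to 5%, and 5 at 1% to 2%. The lowest member inside the limit had 209 globin UMIs of 9435 (2.22%), and the highest barcode outside it had 52 of 2889 (1.80%). In replicate 1 the 4 members had 15.0%, 21.8%, 26.0% and 28.1%, and no other kept barcode reached 1%.

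**Figure D1:**
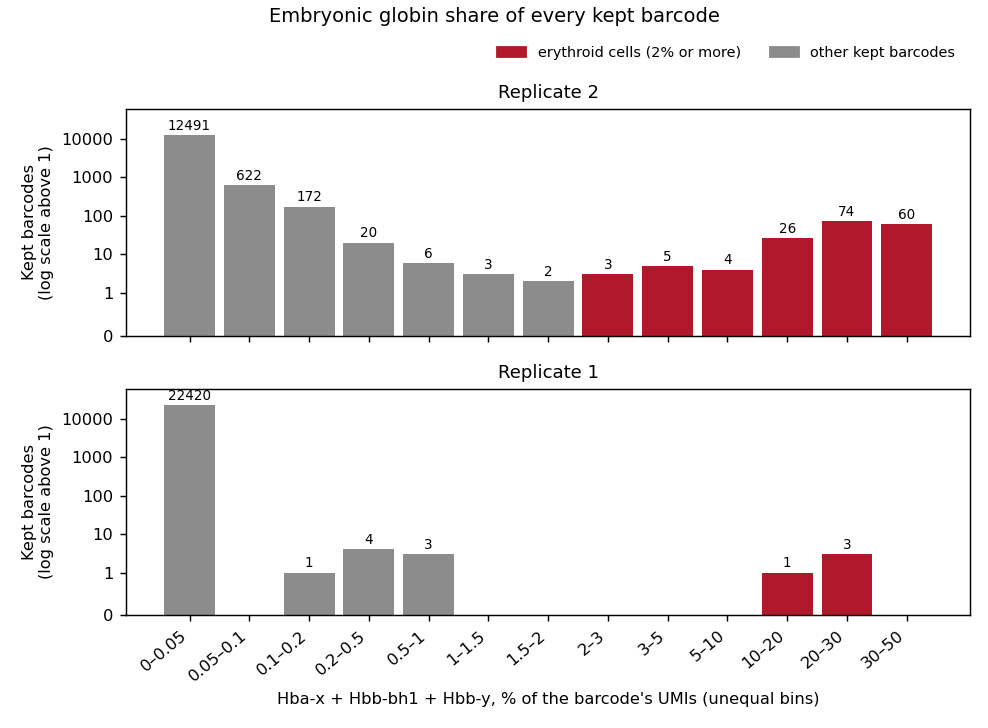
Kept barcodes by the share of Hba-x, Hbb-bh1 and Hbb-y among their UMIs (x axis, percent, unequal bins; y axis, number of barcodes, log scale above 1), with replicate 2 above replicate 1. Members (red, 2% or more) form a separate group in replicate 2, with 134 cells at 20% or more, while replicate 1 has 4 members.

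Members were deeply covered cells with few expressed genes for their depth. In replicate 2 they had a median of 21339 UMIs (range 2060 to 40085), against 15663 in endothelial cells and 9713 in other barcodes. Their median of 3702.5 genes lay between 4267 in endothelial cells and 3299 in other barcodes. With every cell thinned to 2000 UMIs, the members' median was 839 genes, against 1175 in endothelial cells and 1137 in other barcodes of replicate 2. In replicate 1 the thinned medians were 811.5, 1141.5 and 1086 genes. The globin share of the UMIs, which chose the members, leaves fewer UMIs for other genes, so it enters this count.

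Mitochondrial RNA differed between the libraries' members. The 4 members of replicate 1 had 0.0118% to 0.0557% mitochondrial UMIs, whereas the 172 of replicate 2 had a median of 0.808% and 19 of them were under 0.3%. In replicate 1, 50.9% of other barcodes and 9.11% of endothelial cells were also under 0.3%. The part of this difference in the results of replicate 1 was not tested. Leaving out barcodes under 0.3% removes every member of replicate 1.

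Barcode sequences were shared by the libraries in 761 deposited and 407 kept cases, and 5 members of replicate 2 carried a sequence also deposited in replicate 1, but no barcode was a member in both.

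Among the globins, the alpha-type Hba-x was the most abundant gene, ahead of Hbb-bh1 and Hbb-y in both libraries. In the members of replicate 2, Hba-x gave 416197 UMIs or 117453 globin CPM (the standard depth-scaled count, here of all UMIs of the class), Hbb-bh1 gave 314748 or 88824 globin CPM, and Hbb-y gave 181298 or 51163 globin CPM. In the 4 members of replicate 1 the levels were 129474 globin CPM for Hba-x, 76856 for Hbb-bh1 and 41272 for Hbb-y. As shares of the 3 genes together, replicate 2 had 45.6% Hba-x, 34.5% Hbb-bh1 and 19.9% Hbb-y, and replicate 1 had 52.3%, 31.0% and 16.7%. The order was the same in both libraries, although 4 cells stand behind the values of replicate 1. The UMIs count molecules from the 5′ end, so levels were not divided by gene length.

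Adult-type globin genes, which the rule did not use, were present at far lower levels. Hba-a1 had 2535 globin CPM in members of replicate 2 (counting interval 2483 to 2588) and 2771 in those of replicate 1 (2242 to 3387). Hba-a2 had 1156 globin CPM in replicate 2 and 758 in replicate 1 (495 to 1111). The adult beta-type genes were lower still, with 223 globin CPM for Hbb-bs and 24.8 for Hbb-bt in replicate 2, and 204 and 29.2 in replicate 1. Hba-a1 and Hba-a2 are near-identical copies, as are Hbb-bs and Hbb-bt, so the split within each pair is uncertain. All 172 members of replicate 2 had an Hba-a1 UMI, and 120 had an Hbb-bs UMI. The minor genes Hbq1b (39.5 globin CPM) and Hbb-bh2 (7.34 globin CPM), a theta-type and a beta-type globin gene, had 140 and 26 UMIs in replicate 2.

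**Figure D2:**
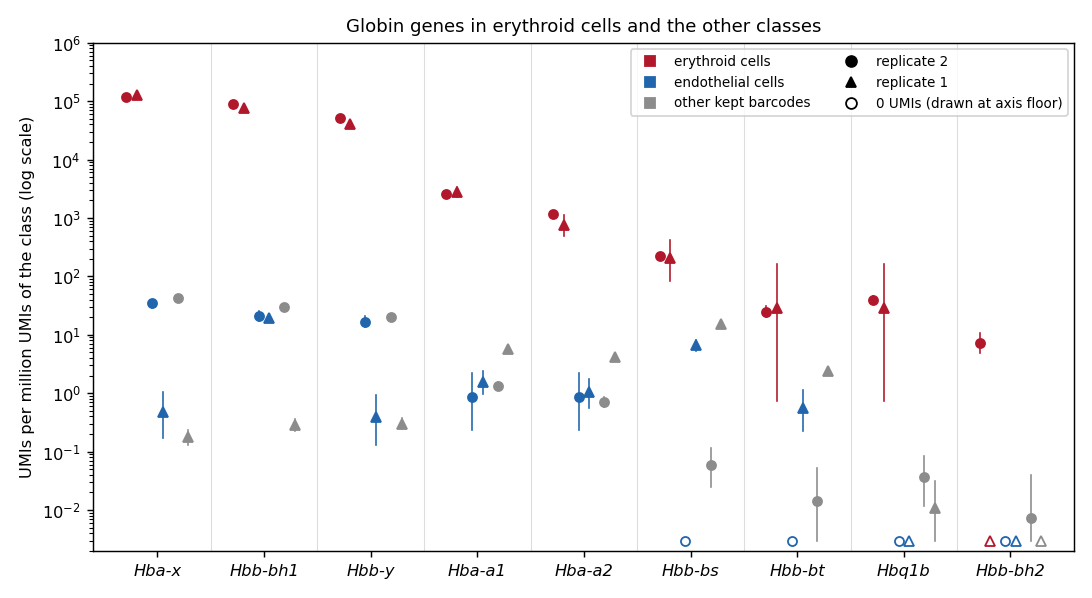
Globin gene levels by class and library (y axis, CPM of all UMIs of the class, log scale; bars, exact 95% Poisson intervals; open symbols, 0 UMIs). Erythroid cells hold 129474 and 117453 globin CPM of Hba-x in replicates 1 and 2 and 2771 and 2535 of Hba-a1, and the other barcodes of replicate 1 hold more adult-type than embryonic globin.

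Globin RNA also reached barcodes outside the class, and here the libraries differed. In replicate 2, 55.2% of kept non-members had at least 1 UMI of the 3 rule genes, with 0.984 UMIs per barcode. This number hardly changed with depth, from 1.03 in barcodes of 2000 to 5000 UMIs to 0.930 in those of 10000 to 20000 and 1.23 above 20000. Its make-up in other barcodes, with 45.5% Hba-x, 32.6% Hbb-bh1 and 21.9% Hbb-y, was close to that of the members. In replicate 1 only 0.241% of kept non-members had such a UMI. Among endothelial cells 60.4% had a rule-globin UMI in replicate 2, at a median of 15663 UMIs, and 1.36% in replicate 1, at a median of 23956. In replicate 1 the endothelial globin was nearly all Hbb-bh1, with 242 UMIs in 4 cells, against 6 of Hba-x and 5 of Hbb-y, so that class is no background for globin there.

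The label was next checked against erythroid genes that the rule did not use, and most members of replicate 2 carried them. Of 172 members in replicate 2, 159 had at least 3 UMIs of Gata1, Klf1, Slc4a1, Rhag, Gfi1b and Nfe2 together (92.4%, interval 87.4% to 95.9%), against 0 of 293 endothelial cells (upper bound 1.25%) and 1 of 13023 other barcodes. Members of replicate 2 at 2% to under 5% globin had a median of 1 UMI of these genes. The medians were 16 at 5% to under 20% globin and 25 at 20% or more. The members at 2.22% and 2.52% globin had 0 UMIs of these genes, so this check gives no evidence for their label. In replicate 1, 2 of 4 members had 3 UMIs or more and all 4 had at least 1. There, 7 of 516 endothelial cells and 3 of 21912 other barcodes had 3 or more. With cells thinned to 2000 UMIs, Alas2 was found in 68.6% of members of replicate 2 (unthinned 95.9%) and Slc4a1 in 54.1% (90.7%). In endothelial cells, at the same depth, both genes were found in 0 of 293 (exact Clopper-Pearson upper bound 1.25%).

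Comparisons of the rest of the transcriptome are in CPM of the UMIs outside all haemoglobin genes, summed over the cells of a class. Genes counted here had a mean of at least 10 CPM over the 2 classes of replicate 2, and a gene is called higher or lower from a 2-fold difference, with no test. Against other barcodes, 513 of 7879 genes were at least 2-fold higher in members (6.51%) and 1551 lower (19.7%). Against endothelial cells, 528 of 8021 were higher (6.58%) and 1743 lower (21.7%). The median gene was 0.22 lower on the log2 scale against other barcodes and 0.21 lower against endothelial cells. The calls and differences given here are not corrected for that shift. With the median gene set to no change, 665 genes were higher and 1249 lower against other barcodes, and 733 and 1439 against endothelial cells. Called higher genes were 24.9% of all calls against other barcodes, or 34.7% with the median gene set to no change and 10.9% with haemoglobin kept in the totals. Against endothelial cells that share was 23.2%, or 33.7% and 9.5%. In replicate 1 alone, with its 4 members, the share was the other way, at 73.8% against other barcodes and 73.7% against endothelial cells. At a 4-fold limit, added after seeing the data, 217 genes were higher (2.75%) and 519 lower (6.59%) against other barcodes, and 207 higher (2.58%) and 762 lower (9.5%) against endothelial cells. Leaving out the 42 members with the most RNA of other tissues, described further on, the 4-fold shares were 3.11% and 14.1% against other barcodes, and 2.97% and 16.5% against endothelial cells.

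Among genes at high levels, the 4 members of replicate 1 mostly went the same way. Of 81 genes at least 2-fold higher than in other barcodes of replicate 2 and at 200 CPM or more in its members, 78 were also higher in replicate 1, 64 of them by 2-fold or more. Of 37 genes at least 2-fold lower in replicate 2 with 400 CPM or more in other barcodes of replicate 1, 37 were lower there and 31 by 2-fold or more. This limit of 400 CPM uses replicate 1 itself and so favours a lower level in its members. Of all 6676 genes past the filter in replicate 1 alone, 1319 were at least 2-fold higher in members than in other barcodes and 469 lower. Genes at lower levels are not resolved by the 25666 UMIs of those 4 cells, in which a count of 0 has an exact 95% Poisson upper limit of 144 CPM.

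Across 7 lists of erythroid genes, 72 of the 112 distinct genes past the level filter were at least 2-fold higher in members than in other barcodes (64.3%) and 6 lower, against 6.51% higher and 19.7% lower over all genes. The lists hold 126 distinct genes in the files, of which the other 14 were under the filter. The lists were chosen with earlier results of these data known, so the counts describe the cells and are no independent evidence.

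Transcription factors of the lineage were among the largest differences, and 12 of the 17 list genes past the level filter were at least 2-fold higher than in other barcodes, 0 lower, with a median log2 difference of 2.97. Gata1, the master regulator of the lineage, had 215 CPM (interval 197 to 233) in members of replicate 2 and 273 CPM (110 to 562) in those of replicate 1, against 0.0800 and 0.0511 CPM in other barcodes. Klf1, the activator of globin and membrane genes, had 305 and 156 CPM in members of replicates 2 and 1, against 0.255 and 0.237 CPM in other barcodes. In both libraries the members' interval lay far above the other classes. Nfe2 (152 CPM in members, 0.182 in other barcodes), a globin gene regulator, and Gfi1b (74.1 and 0.0218 CPM), a repressor needed in erythroid cells, showed the same in replicate 2.

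Several factors that blood shares with endothelium were near the endothelial level. Against endothelial cells 7 of 17 were at least 2-fold higher and 10 within 2-fold. Tal1, which both lineages use, had 120 CPM in members of replicate 2, 65.6 CPM in endothelial cells and 3.06 CPM in other barcodes, and 0 UMIs in the 4 members of replicate 1. Lmo2, its partner, had 105 CPM in members and 200.5 CPM in endothelial cells of replicate 2, a 1.90-fold lower level in members. Lyl1 had 52.0 and 41.5 CPM, and Ldb1, the bridging factor of the complex, 92.8 and 98.7 CPM. Zfpm1, the GATA1 cofactor FOG1, was 4.76-fold higher in members than in endothelial cells (interval 4.12 to 5.51).

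Genes of haematopoietic progenitors and of the definitive programme were mostly near 0 in members. Gata2, active in progenitors, had 2 UMIs or 0.764 CPM in members of replicate 2, against 30.8 CPM in endothelial cells. Kit, the stem cell factor receptor, had 4.97 CPM, against 83.4 CPM in endothelial cells and 28.7 CPM in other barcodes. Cd34 had 0.764 CPM against 180 CPM in endothelial cells, and Myb, required for definitive blood, had 1 UMI. Of 7 list genes past the filter against endothelial cells, 6 were at least 2-fold lower and 1, Ikzf1, was higher. Against other barcodes 3 passed the filter, of which 2 were lower and 1 higher. Ikzf1, a regulator best known from lymphoid cells, had 55.8 CPM in members and 0 UMIs in endothelial cells of replicate 2. Runx1, the regulator of blood emergence, had 10.3 CPM in members, 5.56 CPM in endothelial cells and 0.953 CPM in other barcodes of replicate 2.

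**Figure D3:**
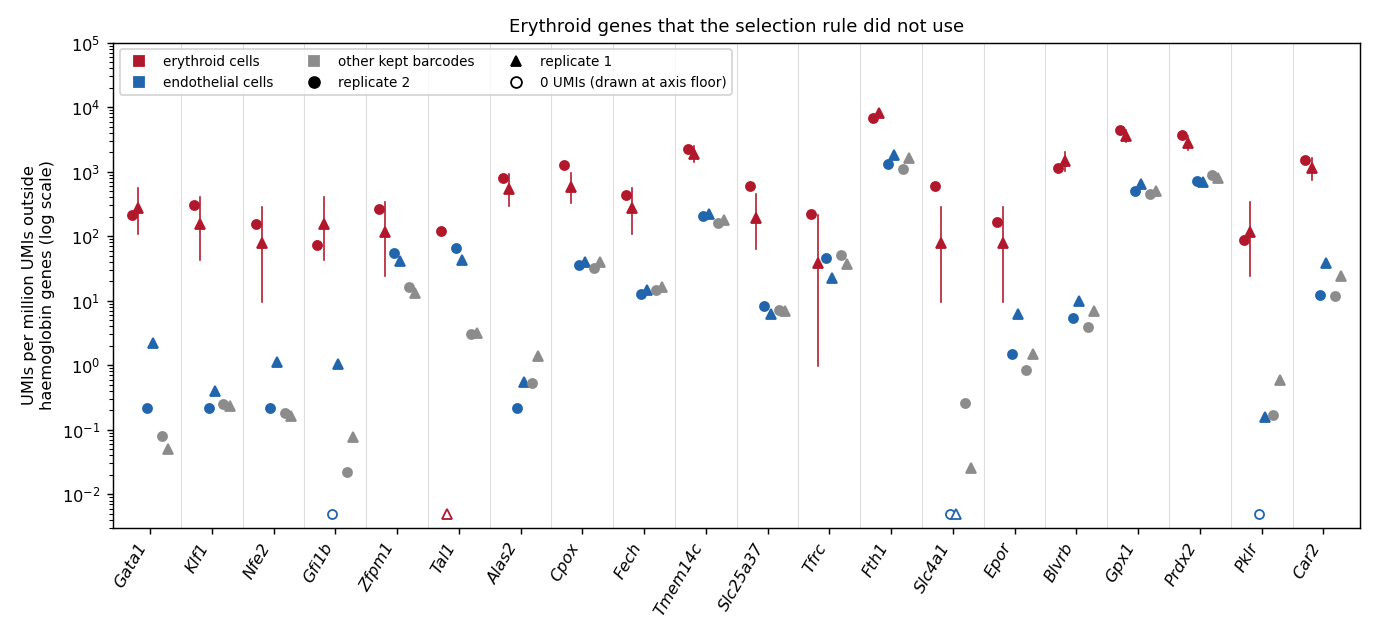
Levels of 20 erythroid genes outside the rule by class and library (y axis, CPM of UMIs outside haemoglobin genes, log scale; bars on members, exact 95% Poisson intervals; open symbols, 0 UMIs). For Gata1, members lie at 215 and 273 CPM in replicates 2 and 1, with endothelial cells and other barcodes at or below 2.22 CPM, while Tal1 is at 0 UMIs in members of replicate 1.

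The haem pathway was high along its length. All 16 list genes passed the level filter, of which 13 were at least 2-fold higher in members than in other barcodes and 0 lower, with a median log2 difference of 3.95. Alas2, the erythroid enzyme of the first step, had 811 CPM (777 to 846) in members of replicate 2 and 545 CPM (298 to 915) in those of replicate 1, against 0.524 and 1.40 CPM in other barcodes. Alas1, the form used by other tissues, had 9.17 CPM in members and 17.9 CPM in other barcodes, which is within 2-fold. The next enzymes followed Alas2 at smaller ratios. Alad was 10.9-fold higher, Uros 21.1-fold, Cpox 39.3-fold (1286 against 32.7 CPM) and Fech, which inserts the iron, 29.3-fold. Tmem14c, which carries the porphyrin precursor across the mitochondrial membrane, had the highest level of the list at 2257 CPM in replicate 2 and 1909 CPM in replicate 1, against 159 and 178 CPM in other barcodes.

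Iron genes were mixed. Of 17 genes past the filter, 8 were at least 2-fold higher than in other barcodes and 2 lower, with a median log2 difference of 0.66. Slc25a37, the mitochondrial iron importer mitoferrin 1, had 595 CPM in members of replicate 2 and 195 CPM in those of replicate 1, against 7.11 and 6.90 CPM in other barcodes. Fth1, the ferritin heavy chain, had 6831 and 8221 CPM in members of replicates 2 and 1, against 1105 and 1604 CPM in other barcodes. The transferrin receptor Tfrc had 220 CPM (202 to 238) in members of replicate 2 against 51.7 CPM in other barcodes, and in replicate 1 a single UMI, so 39.0 CPM with an interval of 0.986 to 217 that holds the other barcodes' 37.4 CPM. Hmox1, which breaks haem down, had 4.59 CPM in members, against 51.5 CPM in endothelial cells and 17.1 CPM in other barcodes, and Aco1, an iron-sensing enzyme, 16.4 against 40.1 CPM in other barcodes.

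Membrane and skeleton genes of the red cell were high in members, with 20 of 24 at least 2-fold higher than in other barcodes, 0 lower and a median log2 difference of 7.48. Slc4a1, the anion exchanger band 3, had 608 CPM (578 to 639) in members of replicate 2 and 77.9 CPM (9.44 to 282) in those of replicate 1, against 0.262 and 0.0255 CPM in other barcodes and 0 UMIs in endothelial cells of both, and the members' intervals of the libraries do not overlap for this gene. Sptb, a chain of the membrane skeleton, had 243 CPM in members of replicate 2, against 1.48 CPM in other barcodes. Car2, the carbonic anhydrase, had 1510 and 1130 CPM in members of replicates 2 and 1, against 11.8 and 23.9 CPM. Not every gene of the list followed: Aqp1, the water channel of adult red cells, had 0 UMIs in members, and Slc2a1, the glucose transporter, had 431 CPM against 403 CPM in other barcodes of replicate 2.

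The erythropoietin receptor was much higher in members, and the rest of its signalling path was mixed. Epor had 167 CPM (152 to 183) in members of replicate 2, against 1.496 CPM in endothelial cells and 0.851 CPM in other barcodes, and 77.9 CPM (9.44 to 282) in the members of replicate 1. Of 8 list genes past the filter, 5 were at least 2-fold higher than in other barcodes and 1 lower, with a median log2 difference of 1.70. The 5 include Epor itself and Gfi1b, which is also counted among the transcription factors. The kinase Jak2, which the receptor uses, had 27.5 against 9.25 CPM, and Pim1, a kinase downstream of STAT5, 307 against 63.8 CPM. Stat5b had 16.8 CPM in members, 4.71 CPM in other barcodes and 16.5 CPM in endothelial cells of replicate 2. Stat5a and Cish, a feedback inhibitor, were under the level filter. Their 1.91 and 4.59 CPM in members lay above other barcodes (0.844 and 1.42 CPM) and below endothelial cells (7.69 and 15.4 CPM).

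Several antioxidant and red cell enzyme genes were highly expressed in members. Of 16 list genes, 10 were at least 2-fold higher than in other barcodes and 0 lower, with a median log2 difference of 1.84. Gpx1, a glutathione peroxidase, had 4399 and 3546 CPM in members of replicates 2 and 1, against 445 and 495 CPM in other barcodes. Prdx2, the peroxiredoxin of red cells, had 3648 and 2805 CPM, against 889 and 796 CPM. Blvrb, biliverdin reductase B, had 1139 and 1442 CPM, against 3.91 and 6.83 CPM. The general antioxidant genes Cat, Sod1, Txn1 and Gsr stayed within 2-fold.

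Genes of organelle clearance and nuclear condensation were mixed, with 5 of 15 at least 2-fold higher, 3 lower and 7 within 2-fold. Trim10, an erythroid gene of the tripartite motif family, had 182 and 195 CPM in members of replicates 2 and 1, against 0.0509 and 0.0182 CPM in other barcodes. Ube2l6, a ubiquitin-conjugating enzyme, had 241 against 1.91 CPM in other barcodes of replicate 2. Bnip3l, the receptor by which reticulocytes clear mitochondria, had 244 CPM in members and 330 CPM in other barcodes.

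**Figure D4:**
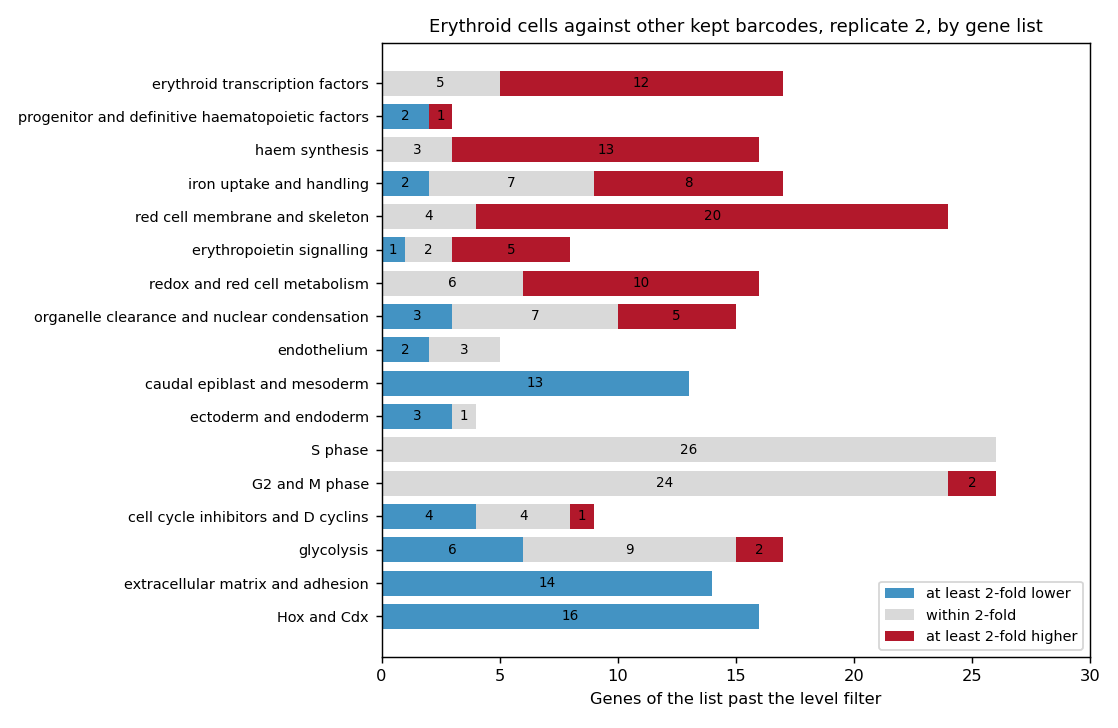
Genes of each list (x axis, number past the level filter) that were at least 2-fold higher (red), within 2-fold (grey) or at least 2-fold lower (blue) in erythroid cells than in other kept barcodes of replicate 2. Lists with under 3 such genes are left out; 20 of 24 red cell membrane genes are higher, and 26 of 26 S phase genes are within 2-fold.

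Cell cycle genes were near the level of the rest of the embryo. All 26 S phase genes were within 2-fold of other barcodes, and of 26 genes of G2 and M phase 24 were within 2-fold and 2, Mki67 and Hmmr, were higher. Mki67, a proliferation marker, had 525 CPM in members of replicate 2, against 219 CPM in other barcodes, and in replicate 1 77.9 CPM (9.44 to 282), against 113 CPM. The D cyclins differed: Ccnd3 had 768 and 779 CPM in members of replicates 2 and 1, against 212 and 216 CPM in other barcodes. Ccnd1 had 65.7 and 39.0 CPM, against 296 and 276 CPM, and Ccnd2 had 97.8 CPM in replicate 2 and 0 UMIs in replicate 1, against 346 and 208 CPM. The cyclin partner Cdk6 (7.26 against 38.2 CPM) and the inhibitor Cdkn1c (31.3 against 152 CPM) were also lower in replicate 2.

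Glycolysis genes leaned low, with 2 of 17 at least 2-fold higher, 6 lower and a median log2 difference of -0.66, against -0.22 for all genes. Pkm, the pyruvate kinase of most embryonic cells, had 1595 and 2143 CPM in members of replicates 2 and 1, against 3475 and 3320 CPM in other barcodes. Pklr, the red cell and liver pyruvate kinase, had 87.9 and 117 CPM, against 0.167 and 0.587 CPM. Pgam1 had 604 against 1873 CPM in replicate 2. The 2 higher genes were Hk1, a hexokinase (51.6 against 8.99 CPM), and Bpgm (159 against 30.5 CPM), which makes the bisphosphoglycerate that tunes oxygen binding.

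Markers of vessel and myeloid cells were low in members, and those of megakaryocytes were mixed. Of 22 endothelial genes, the 18 past the filter against endothelial cells were all at least 2-fold lower in members. Cdh5, Pecam1 and Tek, which define the endothelial class, were left out of that count, and Robo4 was under the filter. The count is a description, because genes high in endothelial cells pass the filter through that class, which was chosen on endothelial UMIs. Against other barcodes 5 endothelial genes passed the filter, of which 2 were at least 2-fold lower in members and 3 within 2-fold. Emcn, Cd93 and Robo4 were at 0 in members of replicate 2. Without Cdh5, Pecam1 and Tek, the 19 other genes of the list summed to 109 CPM in members of replicate 2. In members of replicate 1 they summed to 39.0 CPM (1 UMI). The same sums in replicates 2 and 1 were 4303 and 3695 CPM in endothelial cells and 168 and 175 CPM in other barcodes. Of 12 megakaryocyte genes 6 were at 0 in members of replicate 2, and the list summed to 40.9 CPM there, against 38.9 CPM in endothelial cells and 1.90 CPM in other barcodes. Nearly all of the members' sum came from the integrins Itga2b (22.5 CPM) and Itgb3 (16.4 CPM). Itga2b, the 1 gene of the list past the filter, was at least 2-fold higher than in other barcodes and within 2-fold of endothelial cells. The 4 members of replicate 1 had 0 UMIs of the list. Of 15 myeloid genes 11 were at 0 in members of replicate 2, among them Ptprc, Csf1r and Spi1. The list summed to 3.44 CPM there, near the 3.78 CPM of other barcodes and below the 28.2 CPM of endothelial cells. None of its genes passed the filter. Yolk sac endoderm genes summed to 6.50 CPM in members and 58.0 CPM in other barcodes, with Apoa4, Apob, Apoc2, Amn and Cubn at 0.

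Genes of the caudal tissues were low in members but not at 0 in all of them. Against other barcodes all 13 caudal epiblast and mesoderm genes past the filter, all 16 Hox and Cdx genes and all 14 extracellular matrix genes were at least 2-fold lower. A set of 43 genes of caudal epiblast, mesoderm, ectoderm, endoderm, Hox and Cdx summed to 741 CPM in members of replicate 2, against 3238 CPM in other barcodes. In replicate 1 the sum was 584 CPM from 15 UMIs in the members, against 3590 CPM. These UMIs were uneven between cells: 68 of 172 members had 0 of them, the median was 1, and 42 members with 10 or more held 91.5% of the UMIs. Those 42 had a median of 28190 UMIs, 4851 genes and a globin share of 17.9%, and the other 130 had 20040 UMIs, 3498 genes and 29.0%. Scrublet, a doublet caller, marked 4 of the 172 members and 2 of these 42. The part of mixed barcodes in this was not tested.

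Without the 42 cells, a choice made after seeing the data, erythroid genes were slightly higher. Genes of the 43 were lower by construction. Gata1 then had 256 CPM and Alas2 962 CPM. Against other barcodes 577 genes were at least 2-fold higher (7.32%) and 2047 lower (26%), and against endothelial cells 623 were higher (7.77%) and 2271 lower (28.3%). Genes outside the 43 moved too: Slc2a3, a glucose transporter, had 18.8 CPM without and 183 CPM with the 42 cells, Ccnd1 15.3 and 65.7 CPM, and Cdk6 0.587 and 7.26 CPM. The values of these genes over all 172 members thus rest in large part on the 42 cells.

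The remaining genes were named by a rule: the 12 highest and 8 lowest log2 differences of each comparison with at least 50 CPM in the higher class and the same direction in both libraries. Against other barcodes the 12 highest included Trim10, Mrap, Gfi1b, Gata1, Rhag, Slc4a1, Ncf4, Hemgn, Epb42 and Ermap, with log2 differences from 10.78 to 11.81. Mrap, an accessory protein of melanocortin receptors, had 149 CPM in members and 0.0437 CPM in other barcodes of replicate 2, and 2 UMIs in the members of replicate 1. Ncf4, a subunit of the phagocyte oxidase, had 63.0 against 0.0291 CPM, and Hemgn, an erythroid nuclear protein, 217 against 0.109 CPM in replicate 2. The 8 lowest were Car4, Sp5, Fgf8, Phlda2, Fbln1, Foxf1, Dlk1 and Cdx4, with log2 differences from -3.04 to -2.58. They include the caudal signalling gene Fgf8, at 11.5 CPM in members and 85.6 CPM in other barcodes, and the imprinted gene Dlk1, at 26.7 and 164 CPM. The members' levels of these 8 genes rest in large part on the 42 cells with other-tissue RNA: without them Fgf8 had 1.17 CPM and Dlk1 5.87 CPM, and the 8 log2 differences ran from -6.19 to -3.89. Sp5, Fbln1 and Dlk1 had 0 UMIs in the members of replicate 1, which gives their direction there only as a bound.

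Against endothelial cells the 12 highest included Alas2, Cited4, Klf1, Gata1, Nfe2, Acp5, Hemgn, Icam4, Nxpe2 and Rhd. Cited4, a transcriptional coactivator, had 443 CPM in members of replicate 2 and 468 CPM in those of replicate 1, against 0.214 and 1.90 CPM in endothelial cells. Acp5, the tartrate-resistant phosphatase, had 256 and 156 CPM, against 0 UMIs and 1.74 CPM. The 8 lowest were Esam, Tie1, Cd34, Ecscr, Ctla2a, Aplnr, Ramp2 and Gng11, with log2 differences from -8.32 to -6.13. Ramp2, part of the adrenomedullin receptor, had 9.17 CPM in members and 664 CPM in endothelial cells, a 72.4-fold lower level (interval 48.5 to 113). All 8 of these had 0 UMIs in the members of replicate 1, so their direction there is also a bound.

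Members varied in how their beta-type globin was made up. Among the 130 members of replicate 2 with under 10 other-tissue UMIs, Hbb-y took a median of 38.0% of the Hbb-y and Hbb-bh1 UMIs, with a range of 0.740% to 49.5% and quartiles of 27.0% and 42.4%. Hbb-bh1 thus stayed the larger of the pair in every one of these cells. In the 4 members of replicate 1 the share was 0%, 31.8%, 32.0% and 42.3%, and the cell at 0% had 161 Hbb-bh1 and 237 Hba-x UMIs. Hba-a1 and Hba-a2 took a median of 2.89% of the alpha-type UMIs, with a range of 1.60% to 10.8% and quartiles of 2.46% and 3.39%.

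Cells with more Hbb-y also had more globin in all. Over the 130 cells the Spearman correlation of the Hbb-y share with the globin share was 0.66, with the adult alpha share 0.39, with the total UMIs 0.23 and with the number of genes 0.01. These are descriptions over cells of 1 library, and the globin share holds Hbb-y itself. The 15 cells with under 20% Hbb-y had a median globin share of 20.97% and 9609 UMIs, the 67 cells at 20% to 40% had 27.4% and 19700 UMIs, and the 48 cells at 40% or more had 32.4% and 22429 UMIs. Depth therefore moved with the Hbb-y share, and its part was not tested.

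Gene levels differed along the same axis. From the low to the high Hbb-y group, Pklr had 41.5, 82.5 and 157 CPM, Slc4a1 had 526, 708 and 816 CPM, Gpx1 had 3921, 4960 and 5582 CPM and Alas2 had 643, 935 and 1073 CPM. Gata1, with 290, 227 and 289 CPM, and Klf1, with 408, 360 and 392 CPM, showed no such order. Glycolysis genes summed to 12848, 10816 and 9311 CPM, Pkm had 1632, 1378 and 1008 CPM, and Mest, an imprinted gene, had 602, 50.6 and 24.6 CPM. S phase genes summed to 4737, 4475 and 3675 CPM and genes of G2 and M phase to 4024, 4763 and 5696 CPM. In the low group 5 of 15 cells were under 0.3% mitochondrial UMIs, against 6 of 67 and 5 of 48 in the others. Median other-tissue UMIs of these groups were 0, 1 and 0. All members of replicate 2 were also split at 5% and 20% globin. From low to high globin, Mest had 951, 787 and 75.8 CPM, and median other-tissue UMIs were 31.5, 30.5 and 1. The part of depth, mitochondrial share and other-tissue RNA in the group levels was not tested. Over single cells and 1547 genes at 100 CPM or more, the highest Spearman correlations with the Hbb-y share were those of Prdx2 (0.43), Gpx1 (0.43), Pklr (0.42), Mgst3 (0.42), Tmem14c (0.41) and Rpsa (0.39). The lowest were those of Actg1 (-0.42), Pkm (-0.41), H2afz (-0.39), Pgam1 (-0.37), Hmga1 (-0.36) and Mcm3 (-0.34). Most of these genes correlated more strongly with the globin share, such as Prdx2 (0.71), Gpx1 (0.61) and Actg1 (-0.56). The exceptions were Pklr (0.38), H2afz (-0.37) and Mcm3 (-0.30). The part of the globin share in the correlations with the Hbb-y share was not tested.

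**Figure D5:**
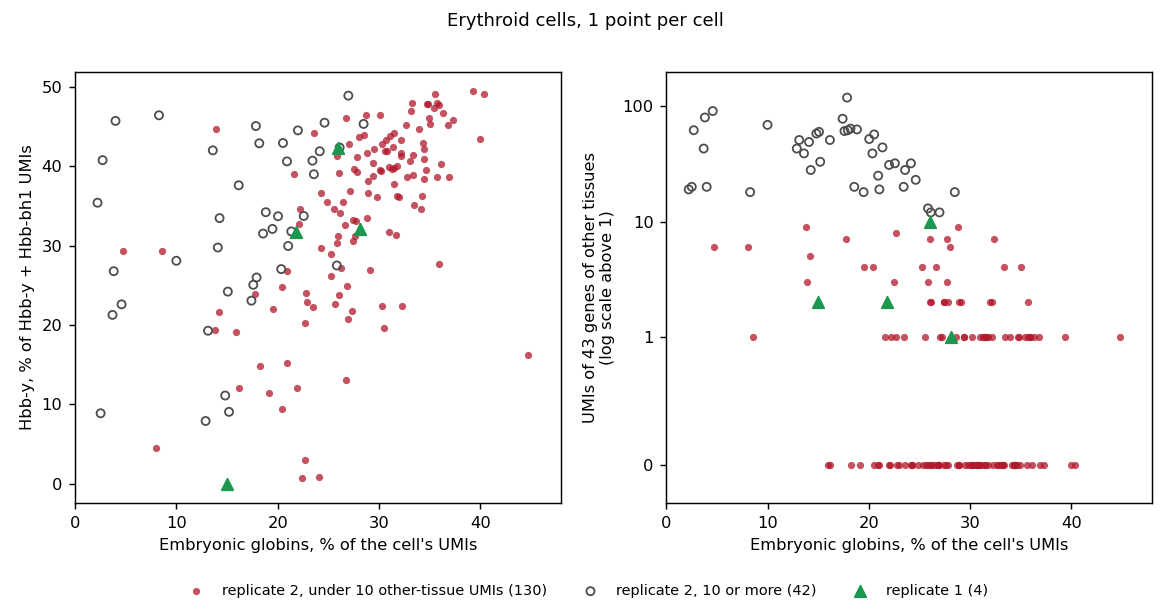
Each member by its embryonic globin share (x axis, percent of UMIs) against the Hbb-y share of Hbb-y and Hbb-bh1 UMIs (left, percent) and the UMIs of 43 genes of other tissues (right, log scale above 1). Filled red points are the 130 cells of replicate 2 with under 10 such UMIs, open circles the 42 with 10 or more, which lie below 30% globin, and green triangles the 4 cells of replicate 1.

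Bands of the globin share, which are ranges and not cell types, were described in all 172 members. The 8 members at 2% to under 5% had a median of 31.5 other-tissue UMIs, 30 members at 5% to under 20% had 30.5, and 134 members at 20% or more had 1. Alas2 had 82.2, 437 and 957 CPM in these bands, Gpx1 had 893, 2788 and 5046 CPM and Actg1 had 3347, 2569 and 996 CPM. The lowest band thus carried erythroid RNA at a small part of the level of the highest one, together with other-tissue RNA. Its members at 2.22% and 2.52% globin had 19 and 20 other-tissue UMIs and 0 UMIs of the erythroid genes used to check the label. With the 42 cells with 10 or more other-tissue UMIs left out, 1, 11 and 118 cells remained, and Alas2 had 376 CPM in the middle and 999 CPM in the highest band.

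A few barcodes with erythroid transcription factors fell outside the class. In replicate 1, 10 kept non-members, 7 of them endothelial by the rule, had at least 3 UMIs of the 6 erythroid genes. Together they held 32 Gata1, 29 Gfi1b, 21 Nfe2 and 6 Klf1 UMIs, but 1 Alas2 and 0 Slc4a1. Their globin was Hbb-bh1, with 241 UMIs, and Hbb-y, with 50, with 0 of Hba-x, and their globin share ranged from 0% to 0.670%. They also held 44 UMIs of Spi1, a myeloid regulator, 33 of Itga2b, 22 of Cd34, 19 of Runx1 and 10 of Kit. The 4 members of replicate 1 had 0 UMIs of these genes over 25666 UMIs outside haemoglobin, against 266833 in the 10 barcodes. For a single gene, a count of 0 in those members allows up to 144 CPM. The difference was not tested. In replicate 2 there was 1 such barcode, with 1.71% globin.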

How the data were processed

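Single-cell RNA was counted in 2 libraries of caudal mouse tissue at embryonic day 8.5. The deposited counts are whole UMIs per gene and barcode, made by the authors with Cell Ranger 6.1.1 on mm10, per the labels and file headers. The sources used here do not name the annotation. The libraries held 30449 and 18245 barcodes, at least 500 UMIs each, with 295866003 and 150964773 UMIs (medians 5842 and 6351), which sets the counting error of every level.

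Members and lists were chosen with earlier results of these data known. Counts were summed per class and library after removing all haemoglobin genes. An edgeR test had been planned only for at least 5 members and 50000 UMIs outside haemoglobin in each library; replicate 1 held 4 and 25666, so no test was made. Genes were counted from a mean of 10 CPM in replicate 2, a 0 was set to a floor of 3 counts, and a 2-fold difference counted as higher or lower. Genes beyond the lists were named by the stated rule, whose requirement to pass a test was void, skipping names of the Gm or Rik form. Some genes that the rule or lists hold are not reported here by name; the counts of genes and lists include them, and the check on 6 erythroid genes does not. Intervals are 95% exact Poisson for levels, Clopper-Pearson for shares and conditional binomial for ratios, and cover counting error only. Scrublet, run on each library within Scanpy 1.11.5, marked about 7% and 2% of kept barcodes in replicates 1 and 2 as doublets, which were kept. Thinning drew 2000 UMIs per cell. Fold calls were tested on simulated counts. Python 3.11.15, numpy 2.4.6, scipy 1.17.1 and pandas 2.3.3 were used. Alternatives were the scaling, the filters, the member limit, doublets, mitochondrial share and endothelial UMIs.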

Additional observations from a re-analysis of the deposited data

Results flagged for a closer look

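Signals were seen in barcodes that the comparisons do not use. In replicate 2, 38 barcodes below the filter on UMIs and genes had at least 2% rule-globin UMIs, beside the 172 members. Their median was 849 UMIs, and 37 of them had under 1000 genes.

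In replicate 1, 16 kept non-members had at least 2% of their UMIs from Hba-a1, Hba-a2, Hbb-bs and Hbb-bt, the adult-type globin genes, with 5997 such UMIs and 0 of the embryonic ones. Of these 16 barcodes 3 had a UMI of Gata1, Klf1, Slc4a1, Rhag, Gfi1b or Nfe2. A further 33 barcodes below the filter had as much adult-type globin, with 11470 UMIs, also with 0 embryonic ones, at a median of 900 UMIs. In replicate 2 no kept barcode and 1 barcode below the filter did so.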

How the results depend on the processing

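No paired analysis was possible because the results come from no test: the minimum of 5 members in each library that was set for one was not met. A fit of class and library could have been computed and was not run for that reason, nor were the DESeq2 test and the fit without the replicate block. The counts of genes at least 2-fold higher and lower changed by over 1.5 times with the filter, the scaling, the fold limit and the library. With no filter on low counts they were 1511 and 3769 against other barcodes, and 1213 and 3636 against endothelial cells. With haemoglobin kept in the totals they were 301 and 2456, and 279 and 2661, with the median gene at -0.66 and -0.65 on the log2 scale. At a 4-fold limit, added after seeing the data, they were 217 and 519, and 207 and 762. Leaving out a replicate gave 513 to 1319 higher and 469 to 1551 lower genes against other barcodes, and 528 to 1391 and 497 to 1743 against endothelial cells; the far values are those of replicate 1 alone, whose 4 members leave fewer UMIs and fewer genes past the filter (6676 and 6897). The other settings kept these counts within 1.5 times. The erythroid list genes at least 2-fold higher, 72 of 126, ranged from 60 to 79 over all settings. Members of replicate 2 ranged from 134 to 208 over limits and filters, and members of replicate 1 were 0 without barcodes under 0.3% mitochondrial UMIs, against 4 with them. Of the 40 values of genes named by the rule, which asks for the same direction in both libraries, none changed direction under the settings run; without replicate 2, 9 of them could be recomputed. Genes named from lists could differ in direction between libraries, as the values of Mki67 did. Its wide counting interval in replicate 1 holds the level of the other barcodes, so no difference between libraries is shown for it. Depth limits replicate 1: a count of 0 in its members allows up to 144 CPM.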
